A study of Mus musculus with 6 samples.

Results

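The 9 genes described here encode transcription factors that set up epidermal identity or drive the differentiation of epidermal cells. They were chosen by gene symbol, and all 9 were found among the 24453 symbols of the count files and among the 14700 genes tested. Trp63, Klf5 and Grhl2 were taken as progenitor and epithelial identity factors, and Klf4, Grhl1, Grhl3, Ovol1, Zfp750 and Cebpa as differentiation factors. The back skin of newborn mice (postnatal day 0) was dissociated and sorted, and 3 Eed cKO libraries (genotype Eed-/- in the labels) were compared with 3 control libraries. Eed belongs to the core of Polycomb repressive complex 2 (PRC2), the enzyme complex behind histone H3 lysine 27 methylation. The sort took EpCAM-positive, Sca1-positive cells with high α6-integrin, which enriches for progenitors of the interfollicular epidermis. The sources used here give neither the Cre driver, the deleted exons, the strain nor the full genotype of the control mice. The labels do not say that libraries come from separate animals, so p-values rest on the spread between libraries, which may be technical.

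The epidermis is renewed by basal progenitors that leave the basement membrane, stop dividing and build the barrier of the outer layers. The p63 protein, encoded by Trp63, is the master regulator of the stratified epithelium and holds the basal programme in place. Grainyhead-like (Grhl) factors, Krüppel-like factors, C/EBP factors, Ovol1 and Zfp750 then switch on the genes of the spinous and granular layers or switch off those of the basal layer.

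Totals ran from 20998149 to 27447679 counts in Eed cKO libraries and from 25481306 to 29998531 in control libraries. Eed itself was at 37.0, 33.7 and 29.2 CPM (counts scaled to the effective library size) in Eed cKO libraries 1, 2 and 3 and at 45.1, 41.1 and 53.1 CPM in control libraries 1, 2 and 3. Its log2 fold change was -0.48 (edgeR adjusted p 0.252), and a count over the whole gene says little about a deletion of some exons. The basal keratinocyte markers (5 genes) summed to between 26856 and 36117 CPM in Eed cKO and to between 30681 and 36897 CPM in control, so the defining markers of the labelled cell type were abundant. The 4 measured suprabasal markers summed to 4143, 6706 and 7311 CPM in Eed cKO libraries 1, 2 and 3 and to 2509, 3436 and 3318 CPM in control libraries 1, 2 and 3. Of these 4, 1 (Krt10) passed the test and rose. In these bulk samples, fewer cells of a type and less RNA per cell cannot be told apart. Marker sums overlapped between the groups for melanocytes, immune cells, fibroblasts, endothelium and hair follicle. The Merkel cell markers (6 genes) summed to between 7.75 and 14.1 CPM in Eed cKO and to between 0.195 and 1.82 CPM in control. Counts of the ribosomal RNA precursor Rn45s took 6.78 to 7.26% of the Eed cKO libraries and 2.18 to 5.24% of the control libraries. Eed cKO library 2 stood apart in Xist, at 8.55 CPM, against at least 5297 CPM in each of the other libraries.

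The differentiation factors Grhl1 and Grhl3 rose in Eed cKO, each by more than its spread between libraries. No progenitor factor passed the test in either direction. With edgeR's quasi-likelihood test and a threshold of 0.05 on the adjusted p, 2 of the 9 factors were higher and 0 were lower, against 3.39% of all 14700 genes called higher and 0.816% called lower. By limma-voom and by DESeq2 the lower count was also 0, while 4 of the 9 factors had an unadjusted edgeR p under 0.05 (14.9% of all genes did). All 6 differentiation factors had a positive log2 fold change, with a median of 0.47 and a range of 0.24 to 1.19. The 3 progenitor factors had negative ones, with a median of -0.31 and a range of -0.37 to -0.18. The median over all genes tested was -0.01. The 9 factors were chosen with earlier results of these data known, so these shares are no independent support. The count of 2 fell to 1 without Eed cKO library 1 or without Eed cKO library 3, where Grhl1 alone passed.

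**Figure D1:**
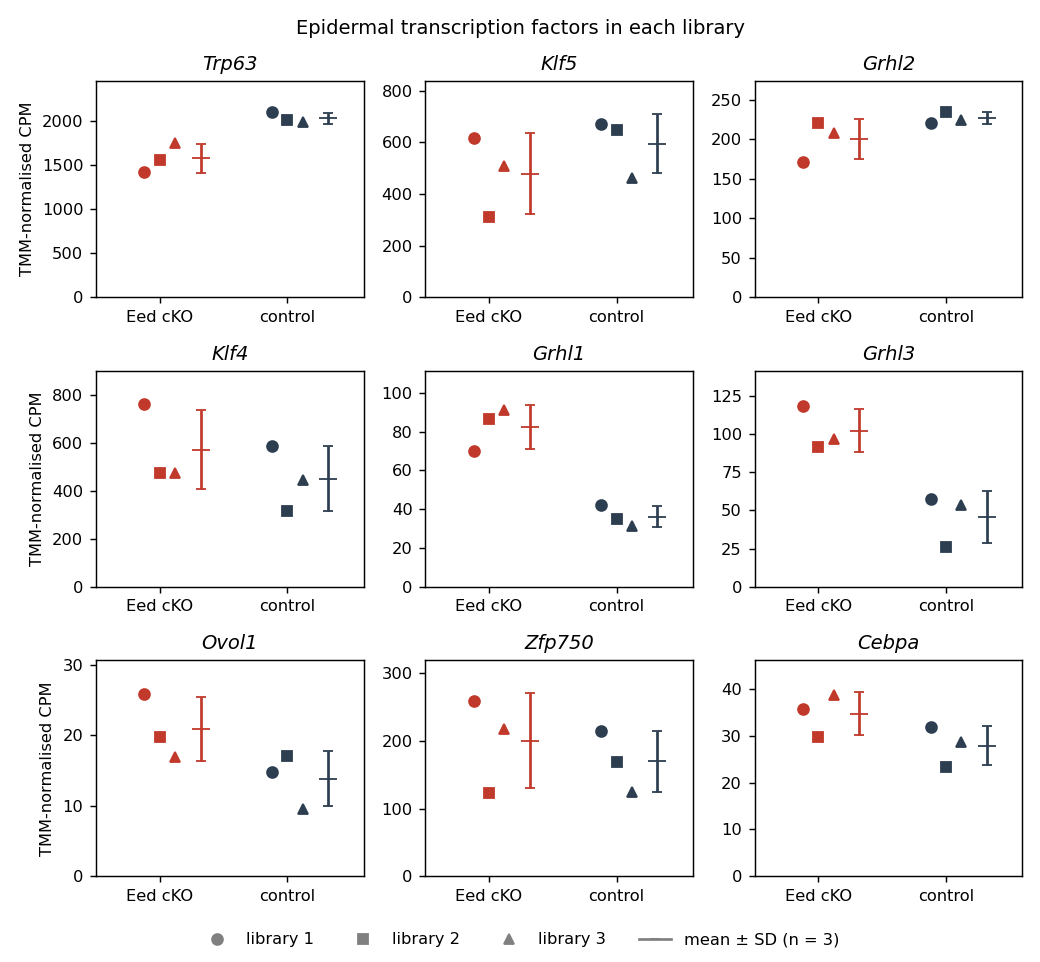
TMM-normalised CPM of each factor in each library, with Eed cKO left of control, symbols for library numbers, and bars for the mean ± SD (n = 3). Grhl1 and Grhl3 were higher in every Eed cKO library than in any control library, and Trp63 and Grhl2 were lower in every one.

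**Figure D2:**
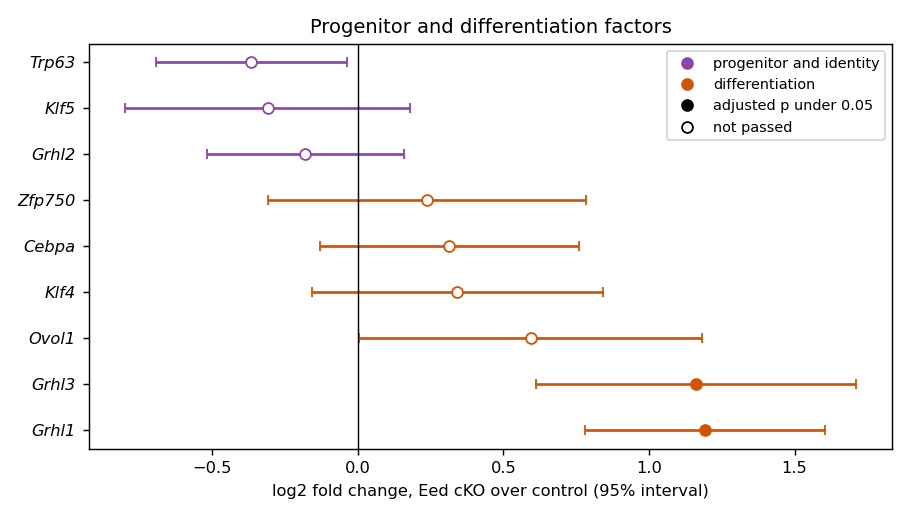
Log2 fold change of each factor, Eed cKO over control, with its 95% interval from edgeR. The intervals of Grhl1 (0.78 to 1.60) and Grhl3 (0.61 to 1.71) lie farthest from 0, and filled points passed the adjusted threshold.

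Trp63, on chromosome 16 (25683763 to 25892102, GRCm38, plus strand), was the most abundant of the factors. It had 1420, 1562 and 1750 CPM in Eed cKO libraries 1, 2 and 3, and 2100, 2009 and 1987 CPM in control libraries 1, 2 and 3. All Eed cKO libraries lay below all control libraries, as they did for 9.22% of all genes tested. The means were 1577 ± 165 CPM in Eed cKO and 2032 ± 60.2 CPM in control (SD, n = 3 each). The log2 fold change was -0.37 (95% interval -0.69 to -0.04, edgeR p 0.0309), and it did not pass after adjustment (edgeR adjusted p 0.266). Gene counts do not separate the TAp63 and ΔNp63 isoforms, of which ΔNp63 is the main form in basal epidermis.

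Klf5 (chromosome 14, 99298691 to 99315036), a Krüppel-like factor of proliferating epithelia, had 617, 310 and 509 CPM in Eed cKO libraries 1, 2 and 3. It had 671, 647 and 462 CPM in control libraries 1, 2 and 3. The groups overlapped, with Eed cKO library 2 the lowest of all 6. Its log2 fold change was -0.31 (95% interval -0.80 to 0.18, edgeR adjusted p 0.613), and -0.07 without Eed cKO library 2.

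Grhl2 (chromosome 15, 37233036 to 37363569), the Grainyhead-like factor that sustains epithelial junction genes, had 172, 221 and 208 CPM in Eed cKO libraries 1, 2 and 3. It had 221, 235 and 224 CPM in control libraries 1, 2 and 3. The Eed cKO libraries lay below the control libraries, but Eed cKO library 2 (221.1 CPM) and control library 1 (221.2 CPM) nearly touched. Grhl2 had a log2 fold change of -0.18 (95% interval -0.52 to 0.16, edgeR adjusted p 0.693). Of its 8613 exonic bases, 169 are shared with a gene on the opposite strand.

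Grhl1, whose loss in mice disturbs desmosomes and hair anchorage, showed the clearest difference. It lies on chromosome 12 (24572283 to 24617391, plus strand). It had 69.8, 86.5 and 91.3 CPM in Eed cKO libraries 1, 2 and 3, and 42.0, 35.0 and 31.3 CPM in control libraries 1, 2 and 3. The groups did not overlap, and every Eed cKO library was above every control library, as for 11% of all genes tested. The means were 82.5 ± 11.3 CPM in Eed cKO and 36.1 ± 5.41 CPM in control (SD, n = 3 each), a 2.29-fold difference. On the log2 scale this was 1.19 ± 0.19 (SE), with an edgeR adjusted p of 0.00233, which ranked 147 of 14700 genes by p-value. It ran from 1.10 to 1.31 over the 14 alternatives, and Grhl1 passed in each (adjusted p at most 0.0195).

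Grhl3, which is required for barrier formation and eyelid closure in the mouse and switches on Tgm1, lies on chromosome 4 (135541888 to 135573630, minus strand). It had 118, 91.5 and 96.6 CPM in Eed cKO libraries 1, 2 and 3, and 57.6, 26.1 and 53.2 CPM in control libraries 1, 2 and 3. The groups did not overlap, and control library 2 was the lowest of the 6. The means were 102 ± 14.2 CPM in Eed cKO and 45.7 ± 17.1 CPM in control (SD, n = 3 each), a 2.24-fold difference. On the log2 scale this was 1.16 ± 0.26 (SE), with an edgeR adjusted p of 0.0187. The call was lost without Eed cKO library 1 (log2 fold change 1.04, edgeR adjusted p 0.0540) or without Eed cKO library 3 (1.20, edgeR adjusted p 0.0674), while over all 14 alternatives the log2 fold change ran from 0.90 to 1.36. It held without Eed cKO library 2, the library that stood apart in Xist (1.25, edgeR adjusted p 0.0424).

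The start regions of Grhl1 and Grhl3 are shown because these are the factors that rose. Each is the 250 bases before the gene's start in RefSeq (GRCm38.p6), read 5′ to 3′ on the gene's strand, with CpG dinucleotides in capitals. Grhl1 is chr12:24572037-24572286 (plus strand) and Grhl3 is chr4:135573633-135573882 (minus strand).
Grhl1: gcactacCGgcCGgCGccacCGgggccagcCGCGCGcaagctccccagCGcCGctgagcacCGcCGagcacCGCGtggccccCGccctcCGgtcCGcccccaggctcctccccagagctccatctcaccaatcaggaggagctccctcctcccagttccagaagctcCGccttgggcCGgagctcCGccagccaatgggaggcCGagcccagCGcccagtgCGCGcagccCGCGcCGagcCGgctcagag
Grhl3: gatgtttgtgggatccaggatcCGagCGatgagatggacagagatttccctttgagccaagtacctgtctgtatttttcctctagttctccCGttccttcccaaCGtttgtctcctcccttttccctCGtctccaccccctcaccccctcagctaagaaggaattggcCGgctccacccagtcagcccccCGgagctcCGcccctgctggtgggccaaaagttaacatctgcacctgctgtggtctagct
The windows differ in base composition, with 27 CpG and 75.6% G or C before Grhl1 and 8 CpG and 56.0% G or C before Grhl3. The median over 32851 such windows of the RefSeq table was 6 CpG. Of the 9 factors, 4 matched that table, and the windows of Klf4 and Cebpa held 32 and 22 CpG. RefSeq gives Grhl1 another start farther downstream whose window held 0 CpG, and gene counts do not separate the starts. The Krüppel-like motif CACCC (either strand) occurred 3 times before Grhl3 and 0 times before Grhl1, and 52.0% of all windows held it. The motif CCNNAGGC, described for human ZNF750, occurred 2 times before Grhl1 and 0 times before Grhl3, against 20.4% of all windows with at least 1. The window of the downstream Grhl1 start held CACCC 2 times and CCNNAGGC 1 time. The Grainyhead motif AACCNGTT, the C/EBP motif TTGCNNAA and the Ovo motif CCGTTA were in none of these windows and in 1.79%, 9.56% and 2.18% of all windows. A p53 family decamer was also in none of them, and in 7.13% of all windows. All motifs were searched on both strands. These matches are letters in a window, and no binding or histone mark was measured.

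The make-up of the Grainyhead-like family differed between the groups. Levels were set per kilobase of annotated exon so that the genes could be compared. Of the summed Grhl1, Grhl2 and Grhl3 level, Grhl2 made up 31.1% ± 4.11 in Eed cKO and 54.1% ± 8.32 in control (SD, n = 3 each). Grhl3 made up 49.0% ± 6.65 in Eed cKO and 32.6% ± 9.34 in control, and Grhl1 19.9% ± 2.72 in Eed cKO and 13.3% ± 1.90 in control. Per kilobase, Grhl3 was the largest of the 3 in every Eed cKO library, and Grhl2 in every control library. In CPM without that step, Grhl2 was the largest of the 3 in every library of both groups. The order within the family thus depends on the exon lengths, 8613 bases for Grhl2 and 2789 for Grhl3. These lengths join the exons of all annotated transcripts, so ranks between genes are uncertain. These shares restate the values above and were given no test.

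**Figure D3:**
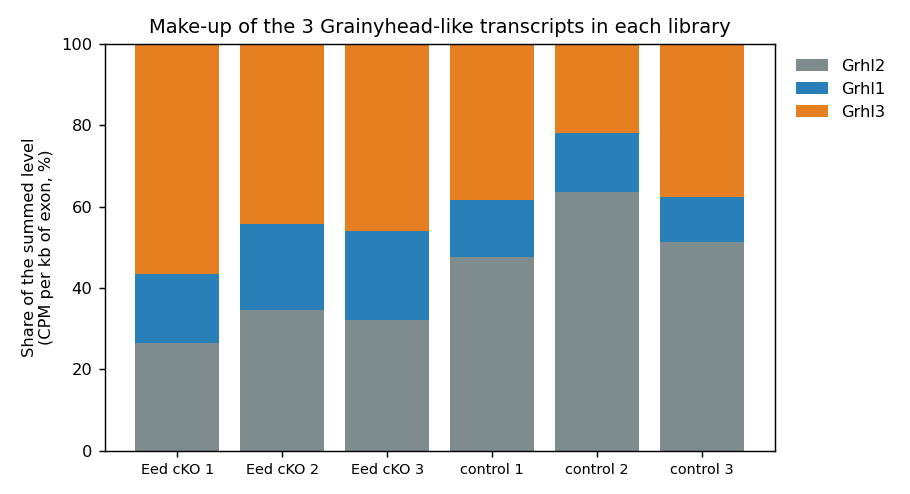
Share of the summed Grhl1, Grhl2 and Grhl3 level (CPM per kilobase of exon) held by each gene in each library, Eed cKO left of control. Grhl2 held 26.6 to 34.6% in the Eed cKO libraries and 47.6 to 63.5% in the control libraries.

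Klf4 (chromosome 4, 55527143 to 55532466, minus strand), which is required for the skin barrier, had 761, 475 and 476 CPM in Eed cKO libraries 1, 2 and 3. It had 589, 318 and 444 CPM in control libraries 1, 2 and 3. The groups overlapped, and the library numbered 1 was the highest in each. The log2 fold change was 0.34 (95% interval -0.16 to 0.84, edgeR adjusted p 0.577), and 0.08 without Eed cKO library 1. Klf4 also responds to growth signals as an immediate early gene in many cells, so 8 such genes (Fos, Fosb, Jun, Junb, Egr1, Egr2, Atf3 and Ier2) were added after the values had been seen. They summed to 2132, 1463 and 1497 CPM in Eed cKO libraries 1, 2 and 3 and to 1595, 1240 and 1961 CPM in control libraries 1, 2 and 3. Egr1 held most of each sum, and 1 of the 8, Egr2, passed: it rose to 28.8 ± 7.41 CPM in Eed cKO, against 8.16 ± 3.17 CPM in control (log2 fold change 1.82, edgeR adjusted p 0.00448). Atf3, Fos, Fosb and Ier2 had negative log2 fold changes, and Egr1, Jun and Junb positive ones, without passing. The highest summed library (Eed cKO 1) and the lowest (control 2) were those of Klf4, but the order between them differed. Control library 3 had a higher sum than control library 1 (1961 against 1595 CPM) but a lower Klf4 (444 against 589 CPM). The part of these genes in the Klf4 values was not tested.

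Ovol1 (chromosome 19, 5549136 to 5560646, minus strand), a zinc-finger repressor that ends progenitor growth in mouse epidermis, had 25.8, 19.7 and 17.0 CPM in Eed cKO libraries 1, 2 and 3. It had 14.8, 17.1 and 9.53 CPM in control libraries 1, 2 and 3. The groups overlapped by a narrow margin, since control library 2 (17.1 CPM) lay just above Eed cKO library 3 (17.0 CPM). Ovol1 had a log2 fold change of 0.59 (95% interval 0.00 to 1.18, edgeR p 0.0489), with an adjusted p of 0.333. Of its 3488 exonic bases, 766 (22.0%) are shared with genes on the opposite strand, and the strand setting of the counting is not given, so its counts are less certain. It was also the least counted factor, with 351 to 709 counts in Eed cKO libraries and 244 to 536 in control libraries.

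Zfp750 (chromosome 11, 121510978 to 121519333, minus strand), whose human counterpart is a p63 target that acts with KLF4 in late differentiation, had 259, 123 and 217 CPM in Eed cKO libraries 1, 2 and 3. It had 215, 169 and 125 CPM in control libraries 1, 2 and 3. Eed cKO library 2 was the lowest and Eed cKO library 1 the highest of all 6, so the groups overlapped throughout. Zfp750 had a log2 fold change of 0.24 (95% interval -0.31 to 0.78, edgeR adjusted p 0.767), and it ran from 0.00 without Eed cKO library 1 to 0.50 without Eed cKO library 2.

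Cebpa (chromosome 7, 35119293 to 35121928), a C/EBP factor that restrains keratinocyte division, had 35.7, 29.7 and 38.6 CPM in Eed cKO libraries 1, 2 and 3. It had 31.7, 23.3 and 28.6 CPM in control libraries 1, 2 and 3. The groups overlapped, with Eed cKO library 2 below control library 1. Cebpa had a log2 fold change of 0.31 (95% interval -0.13 to 0.76, edgeR adjusted p 0.556). The 95% intervals of Klf4, Zfp750 and Cebpa all reach past 0.75 on the log2 scale, so the libraries do not exclude a rise of that size.

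Balance between the programmes was read within each library, where the scaling cancels. The log2 ratio of Grhl1 to Trp63 was -4.35, -4.18 and -4.26 in Eed cKO libraries 1, 2 and 3 and -5.65, -5.84 and -5.99 in control libraries 1, 2 and 3. The ratio was thus 2.96-fold higher in Eed cKO on average, and the groups were far apart. The log2 ratio of Grhl3 to Trp63 was -3.59, -4.09 and -4.18 in Eed cKO libraries and -5.19, -6.26 and -5.22 in control libraries, a 3.04-fold difference. The log2 ratio of Klf4 to Trp63 was -0.90, -1.72 and -1.88 in Eed cKO libraries and -1.84, -2.66 and -2.16 in control libraries. These overlapped at Eed cKO library 3 and control library 1. The log2 ratio of Zfp750 to Trp63 was -2.45, -3.67 and -3.01 in Eed cKO libraries and -3.29, -3.58 and -4.00 in control libraries, which also overlapped. The 18 ratios set each differentiation factor against Trp63, Klf5 and Grhl2. All 18 were higher in Eed cKO on average. This restates the positive log2 fold changes of the differentiation factors and the negative ones of the progenitor factors. Of these ratios, 11 were higher in every Eed cKO library than in any control library, and the others overlapped. The 11 held every ratio of Grhl1, Grhl3 and Ovol1, although the Ovol1 values themselves overlapped between the groups. The 18 share the same 9 genes. Among single genes tested, 11% had every Eed cKO library above every control library, and no such share was computed for ratios. Such ratios reuse the values above and were not tested, and an exact two-sided permutation test of 3 libraries against 3 cannot go below p = 0.1.

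Per kilobase of exon, the factors spanned a wide range of levels, and the order differed between the groups in its lower part. In Eed cKO the order was Trp63 (188 ± 19.7 CPM per kilobase), Klf4 (187 ± 54.1), Klf5 (92.1 ± 29.9), Zfp750 (61.8 ± 21.6), Grhl3 (36.6 ± 5.09), Grhl2 (23.3 ± 2.98), Grhl1 (14.9 ± 2.03), Cebpa (13.1 ± 1.73) and Ovol1 (5.98 ± 1.30). Neighbours with overlapping libraries there were Trp63 and Klf4, Klf5 and Zfp750, Zfp750 and Grhl3, and Grhl1 and Cebpa. In control the order was Trp63 (242 ± 7.17 CPM per kilobase), Klf4 (148 ± 44.5), Klf5 (114 ± 22.0), Zfp750 (52.4 ± 14.0), Grhl2 (26.3 ± 0.854), Grhl3 (16.4 ± 6.12), Cebpa (10.6 ± 1.61), Grhl1 (6.52 ± 0.977) and Ovol1 (3.96 ± 1.12). There the overlapping neighbours were Klf4 and Klf5, and Grhl3 and Cebpa. Among the 14381 tested genes with a length, Trp63 stood at percentile 99.5 in Eed cKO and 99.7 in control, while Grhl1 stood at percentile 80.0 in Eed cKO and 58.3 in control.

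Other transcription factors of the epidermis mostly did not pass. Of 41 listed, 40 were tested, and 2 rose, 1 fell and 37 did not pass, with a median log2 fold change of 0.07. The share that rose was 5%, against 3.39% of all genes called higher, while 0.816% of all genes were called lower. Such small counts say little about the list. Ehf, an ETS factor of epithelial differentiation, rose to 8.01 ± 0.864 CPM in Eed cKO, against 1.60 ± 0.489 CPM in control (log2 fold change 2.31, edgeR adjusted p 0.00669). Runx1, a factor of hair follicle stem cells, rose to 79.9 ± 13.2 CPM in Eed cKO, against 35.6 ± 14.4 CPM in control (log2 fold change 1.17, edgeR adjusted p 0.0195). Pou2f3, a POU factor of suprabasal keratinocytes, fell to 364 ± 75.4 CPM in Eed cKO, against 583 ± 51.6 CPM in control (log2 fold change -0.68, edgeR adjusted p 0.0453). The Runx1 call was lost without Eed cKO library 1 or 3 or control library 2 or 3 (at most 0.0938), and the Pou2f3 call with upper-quartile scaling and without any library but Eed cKO 1 (at most 0.188).

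The 4 genes named by the rule as textbook counterparts of Ovol1 did not pass. Myc was at 360 ± 54.5 CPM in Eed cKO and 236 ± 50.0 CPM in control (log2 fold change 0.61, edgeR adjusted p 0.0917), and it passed without control library 1 (edgeR adjusted p 0.0290), with no filter on low counts and by DESeq2. Id2 was at 2.66 ± 0.0713 CPM in Eed cKO and 4.99 ± 2.14 CPM in control (log2 fold change -0.91, edgeR adjusted p 0.409). Ovol2 (log2 fold change -0.07, positive without Eed cKO library 1, control library 2 or control library 3) and Zeb1 (-0.80) did not pass (edgeR adjusted p 0.980 and 0.534). Cebpb, the other C/EBP factor of differentiating keratinocytes, was at 4.29 ± 1.20 CPM in Eed cKO and 2.60 ± 1.86 CPM in control (log2 fold change 0.72, edgeR adjusted p 0.647).

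Genes of the basal layer or regulated by p63, listed together, mostly did not pass. Of 29 tested, 2 rose, 1 fell and 26 did not pass, with a median log2 fold change of -0.09. The share that rose was 6.90%, against 3.39% of all genes called higher, while 0.816% of all genes were called lower. The log2 fold change was negative for 19 of them, against 7543 of all 14700 genes tested. In 6 of the 29, every Eed cKO library was below every control library, as for 9.22% of all genes. Krt5 (log2 fold change -0.01, positive with RLE or upper-quartile scaling) and Krt14 (-0.15) did not pass (edgeR adjusted p 0.994 and 0.825). Pthlh, encoding parathyroid hormone-related protein, rose to 45.6 ± 8.36 CPM in Eed cKO, against 9.22 ± 1.53 CPM in control (log2 fold change 2.30, edgeR adjusted p 4.46e-05). Sfn, which encodes the cell cycle inhibitor 14-3-3 sigma, rose to 199 ± 34.5 CPM in Eed cKO, against 117 ± 1.80 CPM in control (log2 fold change 0.77, edgeR adjusted p 0.0185). Fgfr3, a growth factor receptor, fell to 113 ± 6.24 CPM in Eed cKO, against 180 ± 1.25 CPM in control (log2 fold change -0.67, edgeR adjusted p 0.0204). The Sfn and Fgfr3 calls were each lost without Eed cKO library 1 or 2 or control library 2 or 3, and Fgfr3 also without Eed cKO library 3 (edgeR adjusted p up to 0.0966).

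Epithelial junction, adhesion and membrane protease genes, several of them known targets of Grhl2, mostly had positive log2 fold changes, while that of Grhl2 was negative. Of 25 listed, 23 were tested, and 20 of these had a positive log2 fold change (48.7% of all genes did). Of the 23, 2 rose and 0 fell, with a median log2 fold change of 0.30. Over all genes tested, 3.39% were called higher and 0.816% lower. The list was written with earlier results of these data known, so its shares are no independent support. The tight junction gene Cldn4 rose to 11.6 ± 4.56 CPM in Eed cKO, against 2.97 ± 1.80 CPM in control (log2 fold change 1.96, edgeR adjusted p 0.0438), and limma-voom gave an adjusted p of 0.0501. The adhesion gene Epcam, whose protein was used in the sort, rose to 140 ± 17.4 CPM in Eed cKO, against 82.1 ± 20.4 CPM in control (log2 fold change 0.77, edgeR adjusted p 0.0433). Both calls were lost without Eed cKO library 2 or 3 or control library 1 or 3 (edgeR adjusted p up to 0.1995). Cdh1, encoding E-cadherin, was at 1449 ± 90.4 CPM in Eed cKO and 1023 ± 230 CPM in control (log2 fold change 0.50, edgeR adjusted p 0.171).

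Terminal differentiation and barrier genes held the most calls. Of 40 listed, 36 were tested, and 11 rose (30.6%, against 3.39% of all genes). Of the 36, 1 fell (0.816% of all genes did) and 24 did not pass, with a median log2 fold change of 0.75. This list too was written with earlier results of these data known, so its shares are no independent support. Tgm1, a transglutaminase that cross-links the cornified envelope and a Grhl3 target in mice, rose to 24.2 ± 3.95 CPM in Eed cKO, against 8.58 ± 3.07 CPM in control (log2 fold change 1.50, edgeR adjusted p 0.0110; 0.0558 without Eed cKO library 2). The spinous keratin Krt10 rose to 2018 ± 441 CPM in Eed cKO, against 847 ± 96.0 CPM in control (log2 fold change 1.25, edgeR adjusted p 0.00126). Its partner Krt1 was at 4010 ± 1332 CPM in Eed cKO and 2227 ± 516 CPM in control (log2 fold change 0.85, edgeR adjusted p 0.0711; 0.0105 without Eed cKO library 1), and it passed with no filter on low counts and by DESeq2. The envelope genes Sprr1a (log2 fold change 1.91) and Hrnr (1.59), the ceramide fatty acid elongase gene Elovl4 (1.42) and the late keratin Krt2 (5.84) rose as well. All control counts of Krt2 lay in control library 1, without which control was at 0 and the fitted log2 fold change of 10.93 is no bound. Tgm5, another epidermal transglutaminase gene, fell (log2 fold change -1.72, edgeR adjusted p 0.00276). Without Eed cKO library 2 the higher count was 6, without Eed cKO library 3 it was 7, and by DESeq2 or with no filter on low counts it was 17. The other 5 that rose, named after their values were seen, were Spink5, Klk5, Abca12, Krt80 and Cyp4f39, which act in desquamation, barrier lipids and the cytoskeleton.

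**Figure D4:**
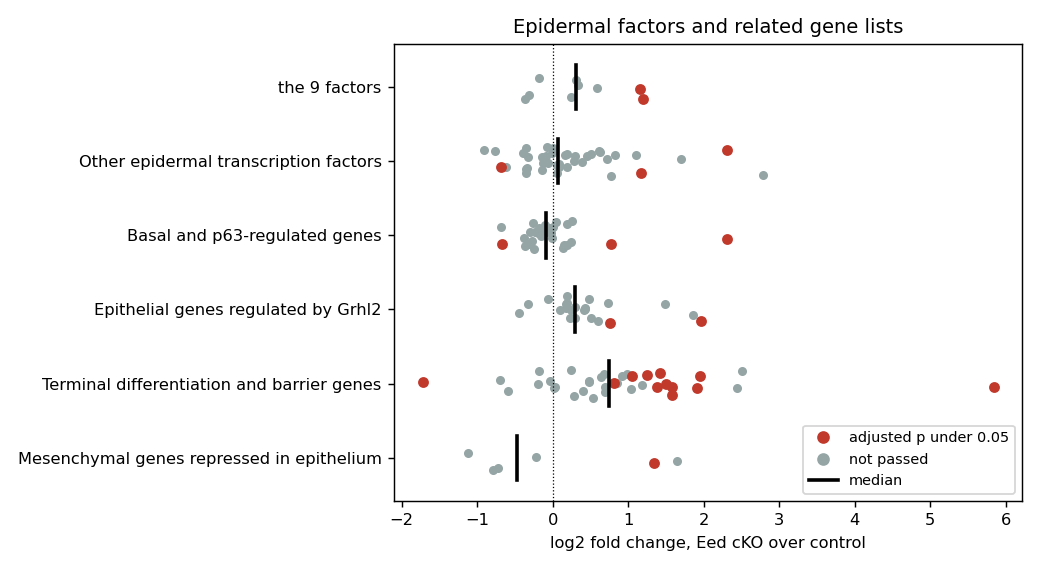
Log2 fold change of each tested gene, Eed cKO over control, for the 9 factors and the 5 related gene lists, with red points for genes that passed and black bars for medians. The terminal differentiation list has the highest median (0.75) and the mesenchymal list the lowest (-0.47).

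Suprabasal marker levels, which were higher in Eed cKO as given above, moved with the rise of Grhl1 and Grhl3 between the groups. The 4 measured markers (Krt1, Krt10, Lor and Ivl) are also in the terminal differentiation list, so that list is not separate from them. Among the Eed cKO libraries the order differed. Library 1 had the lowest suprabasal sum of the 3 (4143 CPM) and the lowest Grhl1 (69.8 CPM), but the highest Grhl3 (118 CPM), Klf4, Ovol1 and Zfp750. The part of suprabasal cells in these results was not tested.

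Mesenchymal genes, some of which Grhl2 and Ovol factors keep low in epithelia, were few. Of 9 listed, 6 were tested, and 1 rose, 0 fell and 5 did not pass, with a median log2 fold change of -0.47. Over all genes tested, 3.39% were called higher and 0.816% lower, and 6 genes are too few to compare with these shares. Fn1, encoding fibronectin, rose to 496 ± 76.6 CPM in Eed cKO, against 196 ± 26.2 CPM in control (log2 fold change 1.34, edgeR adjusted p 0.000410). Vim, encoding vimentin and named after its values were seen, was at 74.1 ± 49.6 CPM in Eed cKO and 162 ± 32.5 CPM in control (log2 fold change -1.13, edgeR adjusted p 0.0917). It passed as lower with no filter on low counts, with limma-voom and without Eed cKO library 1.

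Genes whose pattern over the 6 libraries was most like that of a factor were sought among 116 tested genes of the 5 lists with at least 5 CPM on average. Likeness was the root mean square difference in log2 CPM after centring each gene. It depends on the spread of the factor itself, so it does not rank likeness between factors. The log2 SD over the 6 libraries was 0.16 for Grhl2, 0.23 for Trp63 and 0.68 for Grhl1. The Hippo pathway factor Tead3 was closest to Trp63 (0.07) and to Grhl2 (0.12), and its own log2 fold change was -0.35. For Grhl2 the difference was not far below its own SD, so the likeness was slight. Krt10 was closest to Grhl1 (0.21), with Hopx, a homeodomain cofactor, next (0.27). Runx1 (0.22) and Tgm1 (0.23) were closest to Grhl3. Esrp2 was closest to Zfp750 (0.19), Hes1 to Ovol1 (0.22) and Marveld2 to Cebpa (0.10). With 6 libraries, many genes share a pattern by sharing the group difference or library depth.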

How the data were processed

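RNA from 3 Eed cKO and 3 control libraries of sorted epidermal cells was amplified and sequenced, per the labels' protocols. What the authors deposited is a table of raw, unscaled counts by gene symbol for each library. The submitters' processing notes list mm10 and the tools TopHat2 2.0.13, HTSeq 0.6.1, Cufflinks 2.2.1 and DESeq2 1.6.3, without roles. Neither the annotation nor the strand setting is given there.

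Counts were tested with edgeR 4.0.16 in R 4.3.3. The function filterByExpr kept 14700 of 24453 symbols, TMM set the scaling, and the quasi-likelihood F-test had genotype as its only term. P-values were Benjamini-Hochberg adjusted over the 14700 genes, with calls under 0.05. SE is the log2 fold change divided by the root of F, and intervals are 95%. They cover the spread between libraries, and amplified reads are not independent molecules. Other settings were RLE or upper-quartile scaling, no filter (at least 1 count over all libraries), a filter of 1 CPM in 3 libraries, DESeq2 1.42.0, limma-voom (limma 3.58.1), robust dispersion, a replicate block and each library left out in turn. The code was tested on simulated counts with a smaller spread than these libraries had, so that run does not give the error rates here.

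Exon lengths and coordinates are from GENCODE M21 (GRCm38, the assembly that mm10 names), which all 9 factors and 14381 of the tested genes matched by symbol. Promoter sequences are from RefSeq.

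Genes were named by a rule: the 9 factors, Eed, textbook counterparts of a factor, up to 6 genes with the smallest p among those that passed in each list, and the genes most like each factor, which are not reported here for Klf4 and Klf5. The members, lists and rule were chosen with earlier results of these data known. Flg was not analysed here.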

Additional observations from a re-analysis of the deposited data

How the results depend on the processing

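Over the 14 alternatives, the log2 fold changes of the 9 factors kept their sign, and 124 of the 126 values kept their side of the threshold. The other 2 were those of Grhl3 without Eed cKO library 1 or 3. The count of factors that rose was 1 to 2 with a library left out, and 0 fell in every alternative. Over all genes, DESeq2 called 764 higher and 270 lower, no filter on low counts 257 lower, and the replicate block 675 higher and 269 lower. Leaving out a library gave 302 to 456 higher and 35 to 118 lower. Among other epidermal factors, 7 rose with no filter, 6 with DESeq2 and 6 with the replicate block (1 to 4 with a library left out), and 0 fell with upper-quartile scaling, 3 with no filter and 3 with the replicate block (0 to 1 with a library left out). Among basal and p63-regulated genes, 1 to 2 rose with a library left out. In that list 2 fell with no filter, DESeq2, limma-voom or the replicate block (0 to 1 with a library left out). Among epithelial genes, 1 rose with limma-voom and 0 to 3 with a library left out. Among terminal differentiation genes, 17 rose with no filter or DESeq2 (6 to 13 with a library left out), and 2 fell with no filter. Among mesenchymal genes, 1 fell with no filter, limma-voom or the replicate block, and 0 to 1 with a library left out. The cause was not tested.

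Among the named genes, signs reversed only in 4 whose log2 fold changes were near 0. Krt5 had log2 fold changes of 0.00135 with RLE scaling and DESeq2, 0.0017 with at least 1 CPM in 3 libraries, 0.011 with upper-quartile scaling, and -0.10 to 0.12 with a library left out. With a library left out they ran from -0.27 to 0.034 for Krt14, from -0.61 to 0.36 for Ovol2 and from -0.054 to 0.23 for Tfap2a.

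Same-numbered libraries deviated together with correlations of 0.29, 0.11 and 0.02, and different-numbered ones with correlations of -0.21 to 0.12. These values do not settle whether the numbers pair samples. The labels do not say so, and the main fit took no pairing. Under the replicate block Grhl1 (edgeR adjusted p 0.000497) and Grhl3 (0.000420) were called higher. So were Myc (0.0171), Krt1 (0.00488), Hopx (0.0319) and Barx2 (0.0279). Ezh2 (log2 fold change -0.67, edgeR adjusted p 0.0123) and Vim were called lower. Of the genes named here, only Grhl1 and Grhl3 also passed in the same fit without the block. Precision rests on 3 libraries a group.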
